A study of Mus musculus with 24 samples.

Results

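The genes described here encode peptides of the calcitonin and tachykinin families, their receptors and the membrane proteins that accompany one of those receptors. They were taken by symbol from the deposited expression table, and all 10 (Calca, Calcb, Adm, Calcrl, Ramp1, Ramp2, Ramp3, Tac2, Tacr2 and Tacr3) were found among its 22943 genes. RNA had been sequenced from whole uteri of 21-day-old female mice of the strain labelled C57bl/6. The knockouts carried the genotype label PgreCre+;Ctcf-f/f (cKO), in which Cre recombinase driven by the progesterone receptor gene Pgr deletes the floxed gene for the chromatin loop protein Ctcf in cells that express Pgr. The controls were Cre-negative littermates with the genotype Ctcf-f/f, called floxed below. All groups therefore carried the floxed allele and only the knockouts carried Cre, so that the Cre allele and the loss of Ctcf cannot be told apart. Uteri were taken 6 h after a subcutaneous injection of 0.5 mg progesterone in 0.05 ml sesame oil, or of 0.05 ml sesame oil alone (vehicle). There were 8 floxed vehicle, 8 knockout vehicle, 4 floxed progesterone and 4 knockout progesterone libraries, in 2 library batches named in the labels. All progesterone libraries and 4 vehicle libraries per genotype formed one of them, called mixed here, and the other, called vehicle-only, consisted of 4 vehicle libraries per genotype.

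Calcitonin gene-related peptide (CGRP) and adrenomedullin, the peptide encoded by Adm, act through a receptor protein encoded by Calcrl. That protein reaches the cell surface only together with a receptor activity modifying protein (RAMP). With the Ramp1 product it forms the receptor for CGRP, and with the Ramp2 or Ramp3 product it forms receptors for adrenomedullin. Calca encodes calcitonin and CGRP through alternative splicing, which gene-level values cannot separate, and Calcb encodes the beta form of CGRP. CGRP and adrenomedullin widen blood vessels and relax uterine smooth muscle, and calcitonin is known as a progesterone-induced peptide of the uterine epithelium. Mouse Tac2 encodes neurokinin B, whose preferred receptor is encoded by Tacr3, while Tacr2 encodes the receptor preferred by neurokinin A. Tachykinins contract uterine smooth muscle.

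The promoters of 4 of these genes are shown because Tac2, Calca, Ramp1 and Adm had higher RNA after progesterone in floxed uteri. Promoter windows of 8 of the 10 genes were matched by symbol in RefSeq (GRCm38.p6), each from 250 bases before to 50 bases after the start site. The 250 bases before the start are printed 5′ to 3′ on the strand of the gene: Tac2 at chr10:127724228-127724477 (plus strand), Calca at chr7:114636358-114636607 (minus strand), Ramp1 at chr1:91179572-91179821 (plus strand) and Adm at chr7:110627407-110627656 (plus strand). Capitals mark matches, on either strand, to 3 motifs: ACANNNTGT (the core of the palindrome bound by progesterone receptor dimers), TGTNCT (a shorter element bound by the same receptor) and TGACG (a cAMP response element core). A TGTNCT match may overlap the first motif.
Tac2: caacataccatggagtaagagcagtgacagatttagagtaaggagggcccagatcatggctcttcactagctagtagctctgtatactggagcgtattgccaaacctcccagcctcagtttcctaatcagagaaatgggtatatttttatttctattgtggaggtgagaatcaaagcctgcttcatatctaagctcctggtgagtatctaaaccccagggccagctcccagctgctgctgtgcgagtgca
Calca: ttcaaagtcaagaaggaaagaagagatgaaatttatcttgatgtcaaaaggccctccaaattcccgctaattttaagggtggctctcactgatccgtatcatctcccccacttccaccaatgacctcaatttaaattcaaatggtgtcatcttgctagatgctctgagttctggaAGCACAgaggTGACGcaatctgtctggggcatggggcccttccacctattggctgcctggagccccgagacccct
Ramp1: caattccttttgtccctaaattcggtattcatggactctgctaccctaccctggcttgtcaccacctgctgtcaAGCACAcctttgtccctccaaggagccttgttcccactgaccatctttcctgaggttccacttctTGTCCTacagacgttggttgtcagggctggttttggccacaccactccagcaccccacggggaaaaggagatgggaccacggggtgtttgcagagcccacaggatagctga
Adm: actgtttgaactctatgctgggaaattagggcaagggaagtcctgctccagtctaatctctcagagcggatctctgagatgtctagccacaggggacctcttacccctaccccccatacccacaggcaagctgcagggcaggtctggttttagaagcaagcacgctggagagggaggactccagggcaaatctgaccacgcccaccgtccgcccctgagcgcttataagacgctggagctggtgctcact
No match to any of the 3 motifs lay in the Tac2 or Adm window. Calca held 1 TGTNCT match at position -75 from the start site and 1 TGACG match at -65. Ramp1 held TGTNCT matches at -176 and -111, and a TGACG match at 10 bases past the start, outside the printed stretch. ACANNNTGT was in none of these 4 windows, but the Calcrl window held it at -220. Of all 32851 RefSeq windows of this length, 50.5% held TGTNCT, 20.8% held TGACG and 6.85% held ACANNNTGT. A match is a string of letters and not a shown binding site.

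Values are batch-corrected RPKM (reads per kilobase of a gene's model, corrected for library depth), and errors of group means are SD. The depth, estimated from the steps between low values, was 29.9 to 101 M reads per library. A single read was worth about 0.0112 RPKM for Tac2 and 0.0092 RPKM for Calca at the median depth, so values near 0 rest on few reads. Differences are log2 fold changes of RPKM + 0.5 with their SE from a limma fit of all groups with a batch term, and adjusted p-values are Benjamini-Hochberg values over all 14284 genes reaching 1 RPKM in 4 or more libraries. The added 0.5 RPKM lowers the fold changes of genes near 0. The labels do not say that each library came from its own animal, so p-values measure the spread between these libraries. Some libraries stood apart in genes of neighbouring tissues: Ovgp1, an oviduct gene, reached 146, 191 and 380 RPKM in floxed vehicle library 3, knockout vehicle library 12 and floxed progesterone library 7, and Krt5, a keratin of squamous epithelium, 50.5 and 14.8 RPKM in knockout vehicle library 9 and knockout progesterone library 8. Calls of the 10 genes, of Adm2 and of the named processing and signal genes that are lost without these 5 marker-bearing libraries are given with that value. The call of Tacr1 was not checked without them. Sums of 7 adipose markers ran from -34.6 to 1610 RPKM in floxed and from 31.9 to 1680 RPKM in knockout vehicle libraries. After progesterone they were 260 to 1130 and 139 to 721 RPKM. Adipose markers did not set the choice of the 5 libraries, and their part in the results was not tested. Ctcf averaged 25.9 ± 2.36 RPKM in floxed (n = 8) and 11.4 ± 1.11 RPKM in knockout (n = 8) vehicle libraries, and 26.0 ± 1.05 against 9.95 ± 0.98 RPKM after progesterone (n = 4 each). All 8 stromal, 8 epithelial and 8 smooth muscle marker genes passed the expression filter, and 2 of 5 gland markers did. In whole tissue, fewer cells of a type and less RNA per cell cannot be told apart.

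The genes for the receptor complex and for adrenomedullin were expressed in every library, while the remaining peptide and receptor genes were near 0 in vehicle-treated uteri. Over the 24 libraries Ramp2 had the highest mean level, 63.2 RPKM, and its range of 51.7 to 86.9 RPKM lay above that of every other member. Ramp1 followed with a mean of 17.8 RPKM, Adm with 15, Ramp3 with 13.4 and Calcrl with 11.9 RPKM. The ranges of these 4 genes overlapped, but they span all 4 groups, and the order of the genes was not tested within libraries. The means were 0.98 RPKM for Tac2, 0.685 for Calca, 0.213 for Calcb, 0.193 for Tacr3 and 0.0306 RPKM for Tacr2, again with overlapping ranges.

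**Figure D1:**
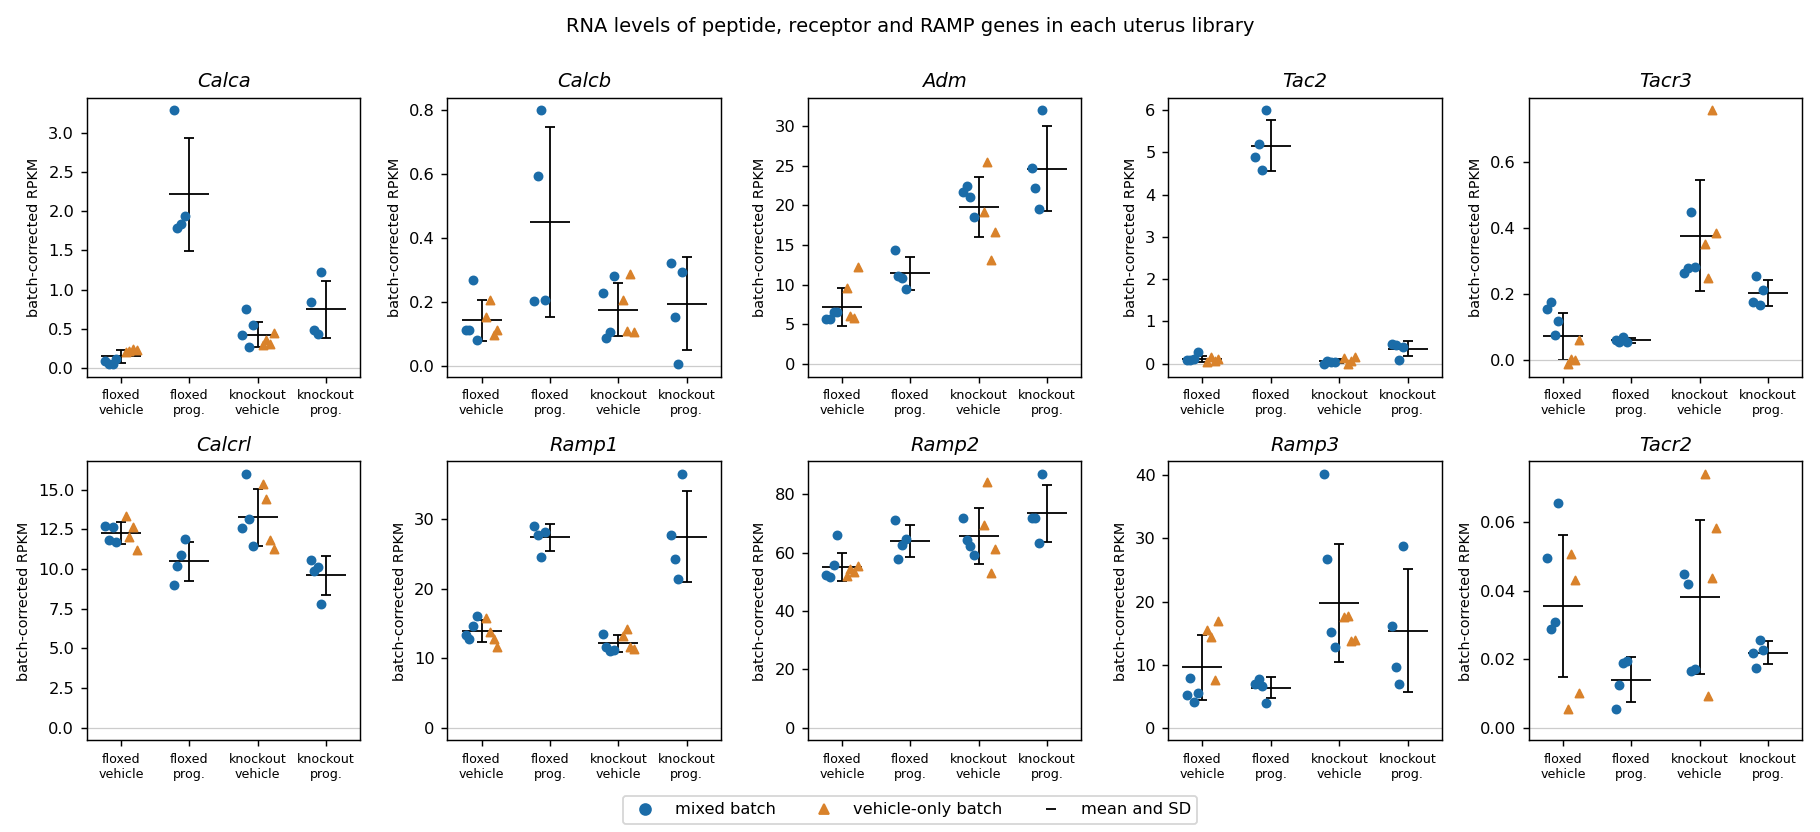
Batch-corrected RPKM (vertical axes, linear, a separate scale per gene) of the 10 genes in each of the 24 libraries, by group. Points are libraries of the mixed batch (circles) and of the vehicle-only batch (triangles), and black lines give the mean and SD of a group. Tac2 and Calca stand high in the 4 floxed progesterone libraries, Ramp1 in all 8 progesterone libraries, and Adm in the knockout libraries of both treatments.

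Of the 10 genes, 7 passed the filter, and Calcb, Tacr2 and Tacr3 did not. Tac2 passed through the 4 floxed progesterone libraries alone, and Calca through the same 4 and knockout progesterone library 8, so these counts describe the genes and support nothing by themselves. After vehicle, Adm, Calca, Ramp2 and Ramp3 were higher in the knockout, where 13.1% of all tested genes were higher and 11.5% lower. After progesterone, Adm was higher and Tac2 and Calca were lower in the knockout, against 12.3% higher and 7.06% lower among all tested genes. Progesterone was followed by higher Tac2, Calca, Ramp1 and Adm in floxed uteri, where 7.84% of tested genes were higher and 15.1% lower. In knockout uteri Ramp1 and Tac2 were higher and Calcrl lower after progesterone, against 4.00% higher and 4.66% lower of all tested genes. The response to progesterone was smaller in the knockout for Tac2 and Calca, against a difference in response called upward in 1.46% and downward in 1.03% of tested genes. Quantile normalization changed the split over all genes from 1758 higher and 1009 lower to 1470 and 1319 between genotypes after progesterone, and from 1120 and 2160 to 1395 and 1608 for the response in floxed uteri. Between genotypes after vehicle it turned 1878 higher and 1638 lower into 1883 and 2104, and for the response in knockout uteri 572 and 666 into 755 and 659. For the difference in response 208 genes were called upward and 147 downward, which became 453 and 263 without floxed vehicle library 12, 127 and 144 without floxed progesterone library 2, and 108 and 102 without knockout progesterone library 5. Contrasts that share a group use the same libraries, and their values are given side by side without counting as independent support.

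**Figure D2:**
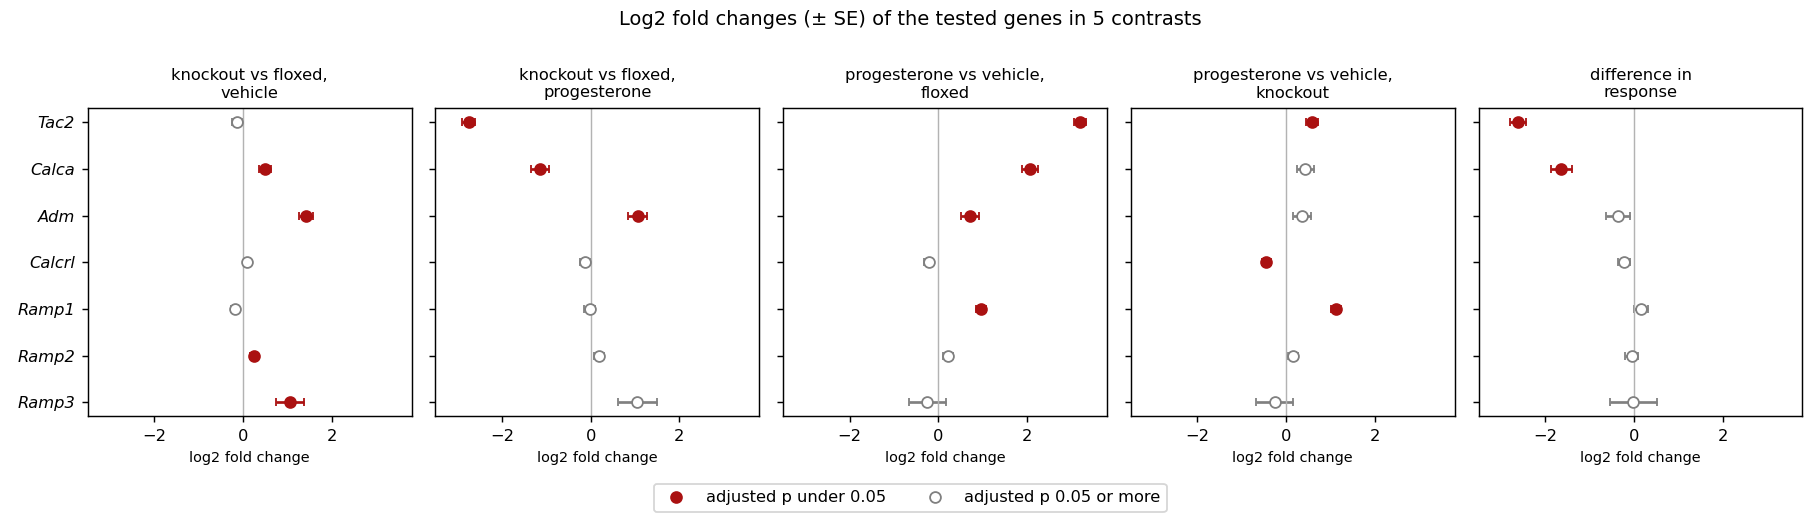
Log2 fold changes with SE (horizontal axes, log2 scale) of the 7 tested genes in the 5 contrasts of the limma fit over 24 libraries. Filled points have an adjusted p under 0.05. Tac2 and Calca have the highest values in the response of floxed uteri and negative values in the difference in response.

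Markers of several cell types and the hormone receptor itself moved with the genotype, and their part in the results below was not tested. Over all tested genes 13.1% were higher and 11.5% lower in the knockout after vehicle, and 12.3% and 7.06% after progesterone. None of 8 smooth muscle markers was called between genotypes in either treatment. Of 8 epithelial markers, 5 (Cdh1, Cldn3, Krt8, Krt18 and Krt19) were lower and 1 was higher in the knockout after vehicle. The sums were 384 to 589 RPKM in floxed and 286 to 430 RPKM in knockout libraries. After progesterone 2 were higher and none was lower, with sums of 357 to 567 against 380 to 566 RPKM. Of 8 stromal markers, 4 (Hoxa10, Hoxa11, Pdgfra and Thy1) were lower after vehicle and 2 after progesterone, and of 4 mesothelial markers 2 and 1 were higher. Of 10 endothelial markers, 3 (Cdh5, Egfl7 and Vwf) were higher in the knockout after vehicle, and the summed level was 279 to 355 RPKM in floxed and 331 to 480 RPKM in knockout libraries. After progesterone the sums were 291 to 349 and 348 to 386 RPKM, and Egfl7 alone of the list was higher. All 5 tested of 7 leukocyte markers were higher in the knockout in both treatments, with sums of 47.2 to 70.4 against 91.7 to 150 RPKM after vehicle and 48.6 to 76.6 against 75.9 to 165 RPKM after progesterone. Both tested gland markers of 5 were lower, with sums of 4.89 to 11.6 against 0.115 to 2.01 RPKM after vehicle and 8.33 to 11.1 against 0.94 to 2.51 RPKM after progesterone. Pgr averaged 39.5 ± 4.18 RPKM in floxed and 23.2 ± 3.84 RPKM in knockout vehicle libraries (n = 8 each), a log2 difference of -0.77 ± 0.14 (limma adjusted p = 0.0002347). After progesterone the Pgr difference was 0.27 ± 0.20 (adjusted p = 0.3726). Its RNA fell with progesterone in floxed (-1.84 ± 0.18, adjusted p = 2.09e-07) and knockout uteri (-0.81 ± 0.18, adjusted p = 0.007378), and these responses differed by 1.04 ± 0.24 (adjusted p = 0.01968).

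Tac2, the neurokinin B gene (chr10:127724478-127731768, plus strand, GRCm38), was the member with the highest fold change after progesterone, and the rise was far smaller in the knockout. Its values were 4.89, 5.19, 4.57 and 5.99 RPKM in floxed progesterone libraries 1, 2, 7 and 9. In knockout progesterone libraries 4, 5, 6 and 8 they were 0.465, 0.452, 0.092 and 0.404 RPKM. In vehicle libraries Tac2 lay between 0.0502 and 0.276 RPKM in floxed (median 0.101) and between -0.00618 and 0.157 RPKM in knockout uteri (median 0.0525), where values below 0 come from the batch correction. All 4 floxed progesterone libraries were therefore above every other library, and the floxed and knockout progesterone groups did not overlap. Within the mixed batch the floxed mean was 5.16 ± 0.61 RPKM (n = 4) after progesterone and 0.142 ± 0.09 RPKM (n = 4) after vehicle, a ratio of 36.2.

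The log2 response of Tac2 was 3.20 ± 0.14 in floxed uteri (adjusted p = 5.13e-13) and 0.58 ± 0.14 in knockout uteri (adjusted p = 0.01166). These responses differed by -2.62 ± 0.19 (adjusted p = 1.87e-08, and 5.2e-09 in a fit of all 22943 genes, which does not depend on the filter that Tac2 passed). After progesterone the knockout mean, 0.353 ± 0.18 RPKM, was 0.0685 of the floxed mean (log2 difference -2.75 ± 0.15, adjusted p = 4.87e-11). After vehicle the genotypes differed by -0.13 ± 0.11, which did not pass the test (adjusted p = 0.4028). The small rise in the knockout lost its call on the RPKM scale (adjusted p = 0.4539) and without the 5 marker-bearing libraries (0.48, adjusted p = 0.1937).

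Calca, the calcitonin and CGRP gene (chr7:114631478-114636357, minus strand), had the next highest log2 response among the tested members, again in floxed uteri. Floxed progesterone libraries 1, 2, 7 and 9 held 3.29, 1.79, 1.84 and 1.94 RPKM. Knockout progesterone libraries 4, 5, 6 and 8 held 0.837, 0.487, 0.433 and 1.23 RPKM. The lowest floxed library was above the highest knockout library, and the means were 2.21 ± 0.72 and 0.747 ± 0.37 RPKM (n = 4 each). The log2 response was 2.07 ± 0.19 in floxed uteri (adjusted p = 5.92e-08) and 0.43 ± 0.19 in knockout uteri, which did not pass the test (adjusted p = 0.1639, 95% interval 0.05 to 0.82). The difference in response was -1.63 ± 0.24 (adjusted p = 0.0003856, and 0.0004029 without the filter), and the genotypes differed by -1.14 ± 0.20 after progesterone (adjusted p = 0.0002689).

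After vehicle the order of the genotypes was the opposite for Calca. Floxed vehicle libraries ranged from 0.0511 to 0.248 RPKM (median 0.159) and knockout vehicle libraries from 0.265 to 0.748 RPKM (median 0.39), with no overlap in either batch. The log2 difference was 0.50 ± 0.14 (adjusted p = 0.01147). It was 0.77 ± 0.21 in the mixed batch (adjusted p = 0.02008) and 0.23 ± 0.13 in the vehicle-only batch (adjusted p = 0.4091), and it was not called on the RPKM scale (adjusted p = 0.326), with quantile normalization (0.28, adjusted p = 0.2095) or without the 5 marker-bearing libraries (0.42, adjusted p = 0.05678). With 0.1 or 1 RPKM added in place of 0.5 it was 1.08 or 0.30.

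Sensory nerves store CGRP in their endings, although most of its RNA lies in cell bodies outside the uterus. Of 5 sensory neuron markers, 2 passed the filter, and the sodium channel genes Scn9a and Scn10a had group means of at most 0.00702 and 0.00122 RPKM. The summed level of the list was 0.781 to 2.48 RPKM in floxed and 2.68 to 5.08 RPKM in knockout vehicle libraries, and 1.79 to 2.09 against 2.84 to 3.66 RPKM after progesterone. Avil alone of the list was higher in the knockout, by 1.49 ± 0.17 after vehicle (adjusted p = 6.91e-07). Of 10 nerve and Schwann cell markers 6 were tested and only Uchl1 was higher, by 1.94 ± 0.12 after vehicle (adjusted p = 7.02e-11). Their part in the Calca values was not tested.

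Calcb, the beta CGRP gene (chr7:114718643-114723365, plus strand), stayed under 1 RPKM in all 24 libraries. Floxed progesterone libraries 1, 2, 7 and 9 held 0.201, 0.595, 0.799 and 0.207 RPKM, and knockout progesterone libraries 4, 5, 6 and 8 held 0.322, 0.152, 0.00464 and 0.293 RPKM. Only floxed libraries 2 and 7 stood above the other groups, whose values ended at 0.322 RPKM. In a fit of all 22943 genes without the filter, the response in floxed uteri was 0.52 ± 0.16 (adjusted p = 0.03445), where 5.62% of genes were higher. Without the 5 marker-bearing libraries, which include floxed progesterone library 7, it was 0.46 ± 0.16 (adjusted p = 0.07824). The difference in response, -0.50 ± 0.21, did not pass the test (adjusted p = 0.3248).

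Adm, the adrenomedullin gene (chr7:110627661-110629820, plus strand), was higher in the knockout in both treatments. Vehicle libraries ranged from 5.65 to 12.2 RPKM in floxed (median 6.25) and from 13.1 to 25.4 RPKM in knockout uteri (median 20.1), without overlap. The means were 7.24 ± 2.39 and 19.8 ± 3.77 RPKM (n = 8 each), a ratio of 2.73 and a log2 difference of 1.42 ± 0.15 (adjusted p = 2.8e-07). The difference was 1.70 ± 0.14 in the mixed batch (adjusted p = 8.92e-07) and 1.13 ± 0.26 in the vehicle-only batch (adjusted p = 0.03161). The annotation places an antisense gene, Gm28863, across Adm on the opposite strand, and without a known strand setting its reads cannot be told from those of Adm.

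After progesterone, Adm was 14.4, 11.1, 10.9 and 9.49 RPKM in floxed libraries 1, 2, 7 and 9 and 24.7, 22.2, 19.5 and 31.9 RPKM in knockout libraries 4, 5, 6 and 8. Every knockout library was above every floxed library, by a ratio of means of 2.15 and a log2 difference of 1.06 ± 0.22 (adjusted p = 0.001187). The log2 response to progesterone was 0.70 ± 0.20 in floxed uteri (adjusted p = 0.01478) and 0.35 ± 0.20 in knockout uteri (adjusted p = 0.3255), and the responses did not pass a test of their difference (-0.35 ± 0.27, adjusted p = 0.6122). The floxed response lost its call without floxed progesterone library 1 (0.59, adjusted p = 0.05657), without the 5 marker-bearing libraries (0.73, adjusted p = 0.06001) and on the RPKM scale (adjusted p = 0.2089).

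Calcrl, which encodes the receptor shared by CGRP and adrenomedullin (chr2:84330626-84425411, minus strand), varied little. Its values ran from 7.82 to 16 RPKM over the 24 libraries, and the genotypes overlapped in both treatments. Means were 12.3 ± 0.69 RPKM in floxed and 13.2 ± 1.81 RPKM in knockout vehicle libraries (n = 8 each), and 10.5 ± 1.23 and 9.61 ± 1.22 RPKM after progesterone (n = 4 each). The genotypes differed by 0.10 ± 0.08 after vehicle (adjusted p = 0.4021, 95% interval -0.06 to 0.26) and by -0.12 ± 0.11 after progesterone (adjusted p = 0.4843). Calcrl fell after progesterone in knockout uteri, where libraries 4, 5, 6 and 8 held 10.6, 9.91, 10.1 and 7.82 RPKM and the vehicle libraries of the mixed batch 11.4 to 16 RPKM, with a log2 response of -0.44 ± 0.10 (adjusted p = 0.008724). In floxed uteri the value was -0.22 ± 0.10 (adjusted p = 0.1292), and the responses did not pass a test of their difference (-0.22 ± 0.14, adjusted p = 0.5049). The fall in the knockout was not called without the 5 marker-bearing libraries (-0.43, adjusted p = 0.06435).

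Ramp1, the partner that turns the Calcrl product into the CGRP receptor (chr1:91179822-91225196, plus strand), rose after progesterone in both genotypes. Floxed libraries 1, 2, 7 and 9 held 29.1, 27.7, 24.6 and 28.1 RPKM after progesterone, and knockout libraries 4, 5, 6 and 8 held 27.7, 24.3, 21.4 and 36.5 RPKM. All 16 vehicle libraries lay lower, between 11.6 and 16.1 RPKM in floxed and between 11 and 14.1 RPKM in knockout uteri. Within the mixed batch the ratio of means was 1.92 in floxed and 2.33 in knockout uteri. The log2 response was 0.96 ± 0.12 in floxed uteri (adjusted p = 4.21e-06) and 1.12 ± 0.12 in knockout uteri (adjusted p = 3.19e-06).

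The Ramp1 responses of the genotypes did not pass a test of their difference (0.16 ± 0.16, adjusted p = 0.7227), and its 95% interval ran from -0.16 to 0.48. The genotypes differed by -0.02 ± 0.13 after progesterone (adjusted p = 0.9301, 95% interval -0.28 to 0.24) and by -0.18 ± 0.09 after vehicle (adjusted p = 0.1599). A smaller response in the knockout was thus called for Tac2 and Calca and not for Ramp1, and whether the genes differ in this was not tested.

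Ramp2, the adrenomedullin partner that is abundant in endothelium (chr11:101246028-101259546, plus strand), ranged from 51.7 to 66.1 RPKM in floxed (median 53.9) and from 52.9 to 84.1 RPKM in knockout vehicle libraries (median 63.3). The groups overlapped, and the means of 55.1 ± 4.68 and 65.6 ± 9.50 RPKM (n = 8 each) gave a ratio of 1.19 and a log2 difference of 0.24 ± 0.08 (adjusted p = 0.03531). This call was lost when any of 9 libraries was left out: knockout vehicle 4, 5 or 9, or floxed vehicle 1a, 1b, 2, 3, 7 or 10 (0.18 to 0.24, adjusted p from 0.05079 to 0.08197). It was also lost within the mixed batch (0.19, adjusted p = 0.2489), within the vehicle-only batch (0.29, adjusted p = 0.2746), on the RPKM scale (adjusted p = 0.05234) and without the 5 marker-bearing libraries (0.24, adjusted p = 0.07499). After progesterone the values were 57.8 to 71.1 RPKM in floxed and 63.2 to 86.9 RPKM in knockout libraries, a difference of 0.19 ± 0.12 (adjusted p = 0.2744). Ramp2 overlaps Vps25 on the same strand, so reads in the shared stretch could be split between them.

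Ramp3, the other adrenomedullin partner (chr11:6658521-6677475, plus strand), differed between genotypes mainly in the mixed batch. There the floxed vehicle libraries held 5.13, 7.82, 4.07 and 5.52 RPKM (1b, 2, 3 and 4) and the knockout vehicle libraries 40.2, 26.7, 15.2 and 12.8 RPKM (9, 10, 11b and 12). In the vehicle-only batch the floxed libraries held 15.4, 14.3, 7.60 and 16.9 RPKM (1a, 7, 10 and 12) and the knockout libraries 17.6, 17.7, 13.8 and 13.9 RPKM (4, 5, 11a and 13), and the genotypes overlapped. The log2 difference after vehicle was 1.07 ± 0.31 over both batches (adjusted p = 0.01396), 1.87 ± 0.40 in the mixed batch (adjusted p = 0.003936) and 0.26 ± 0.23 in the vehicle-only batch (adjusted p = 0.6283). On the RPKM scale it was not called (adjusted p = 0.05235). A processed pseudogene on the opposite strand, Gm11978, overlaps the start of Ramp3.

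After progesterone, Ramp3 was 7.00, 7.77, 6.69 and 3.95 RPKM in floxed libraries 1, 2, 7 and 9 and 16.2, 9.67, 6.93 and 28.7 RPKM in knockout libraries 4, 5, 6 and 8. The groups overlapped at knockout library 6, and the difference of 1.05 ± 0.44 did not pass the test (adjusted p = 0.09748) unless that library was left out (1.35, adjusted p = 0.04336). The highest Ramp3 value of each knockout group was in the library of that group with the highest Krt5, knockout vehicle 9 (50.5 RPKM Krt5) and knockout progesterone 8 (14.8 RPKM Krt5). Without the 5 marker-bearing libraries, these included, the difference after vehicle was 0.78 ± 0.28 (adjusted p = 0.05504). Knockout vehicle library 10, with 26.7 RPKM Ramp3, had a Krt5 value of -1.16 RPKM. The part of squamous tissue in the Ramp3 values was not tested.

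**Figure D3:**
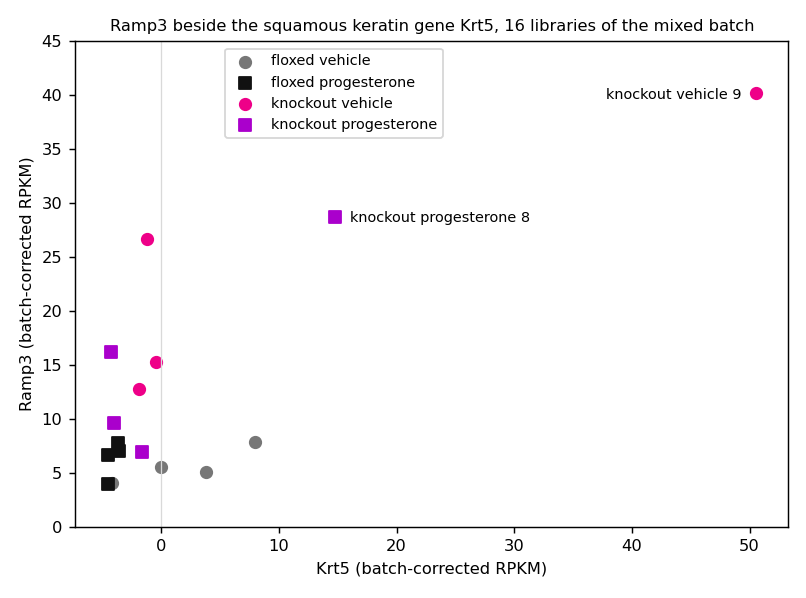
Ramp3 (vertical axis) against the squamous keratin gene Krt5 (horizontal axis), both in batch-corrected RPKM on linear scales, in the 16 libraries of the mixed batch. Each point is a library, coloured by group. The labelled libraries, knockout vehicle 9 and knockout progesterone 8, are highest in Krt5 (50.5 and 14.8 RPKM) and in Ramp3 (40.2 and 28.7 RPKM). Values below 0 come from the batch correction.

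**Figure D4:**
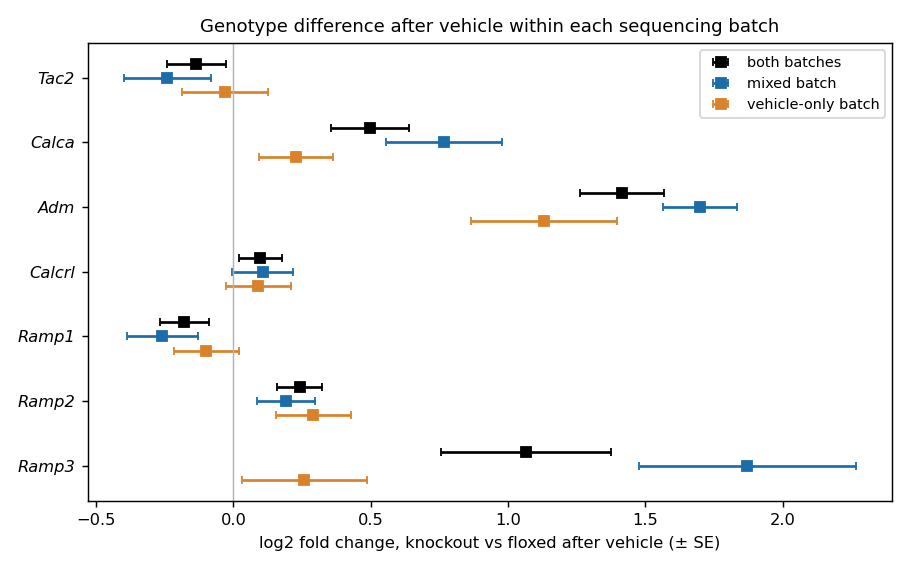
Log2 fold change of knockout against floxed after vehicle (horizontal axis, with SE) for the 7 tested genes, fitted over both batches and within each. Adm lies above 0 in both batches (1.70 and 1.13), whereas Ramp3 is at 1.87 in the mixed batch and at 0.26 in the vehicle-only batch.

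Tacr3, the neurokinin B receptor gene (chr3:134829007-134934579, plus strand), was under 1 RPKM in every library but higher in the knockout after vehicle. Floxed vehicle libraries ranged from -0.0122 to 0.174 RPKM (median 0.0688) and knockout vehicle libraries from 0.248 to 0.756 RPKM (median 0.317), without overlap in either batch. In the fit of all 22943 genes the log2 difference was 0.60 ± 0.09 (adjusted p = 3.66e-05), where 10.8% of genes were higher in the knockout. After progesterone, floxed libraries held 0.0537 to 0.0697 RPKM and knockout libraries 0.166 to 0.255 RPKM, again without overlap, and the difference of 0.33 ± 0.13 did not pass the test (adjusted p = 0.09101). A single read was worth about 0.00412 RPKM for Tacr3.

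Tacr2, the neurokinin A receptor gene (chr10:62252438-62265990, plus strand), did not exceed 0.0741 RPKM in any library. Its group means were 0.0356 ± 0.021 and 0.0383 ± 0.022 RPKM in floxed and knockout vehicle libraries (n = 8 each), and 0.0141 ± 0.0066 and 0.0219 ± 0.0034 RPKM after progesterone (n = 4 each). A single read was worth about 0.00686 RPKM, and the 5 contrasts of the unfiltered limma fit had adjusted p-values of 0.261 to 0.9382. Receptor RNA for the neurokinins was therefore low in all 4 groups beside the 4.57 to 5.99 RPKM of Tac2 in floxed progesterone libraries.

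Other genes of the same families were counted from fixed lists. Of the calcitonin family partners (Adm2, Iapp, Calcr, Crcp and Ackr3), Crcp and Ackr3 passed the filter and did not pass the test in any of the 5 contrasts. Adm2, which encodes a peptide related to adrenomedullin, averaged 0.0245 ± 0.03 RPKM in floxed and 0.451 ± 0.22 RPKM in knockout vehicle libraries (n = 8 each) without overlap. In the unfiltered fit its difference was 0.82 ± 0.12 after vehicle (adjusted p = 2.56e-05) and 0.62 ± 0.17 after progesterone (adjusted p = 0.01342), where 9.24% of genes were higher. The calcitonin receptor gene Calcr had group means of at most 0.00323 RPKM and the amylin gene Iapp of at most 0.00465 RPKM. The tachykinin partners Tac1, Tac4 and Tacr1 all stayed under the filter. Tacr1, the substance P receptor gene, was 0.206 ± 0.035 RPKM in floxed vehicle and 0.0674 ± 0.017 RPKM in floxed progesterone libraries of the mixed batch (n = 4 each), without overlap. The knockout means there were 0.199 and 0.0775 RPKM, with overlap. In the unfiltered limma fit the response of Tacr1 was -0.39 ± 0.10 in floxed uteri (adjusted p = 0.00894), where 10% of genes were lower. In knockout uteri it was -0.18 ± 0.10 (adjusted p = 0.342). The responses did not pass a test of their difference (0.21 ± 0.13, adjusted p = 0.565).

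Of 12 genes for enzymes that process or break down such peptides, 10 were tested. After vehicle 2 were higher (Pam and Pcsk6) and 1 lower (Mme) in the knockout, and after progesterone Pam and Pcsk6 were again higher and Mme lower. Over all tested genes 13.1% were higher and 11.5% lower after vehicle, and 12.3% and 7.06% after progesterone. The progesterone calls of Pcsk6 (0.52, adjusted p = 0.07634) and Mme (-0.45, adjusted p = 0.3183) were lost without the 5 marker-bearing libraries. Pam makes the amide end that CGRP, adrenomedullin and neurokinin B need for activity. It averaged 31.3 ± 2.30 RPKM in floxed and 51.1 ± 4.30 RPKM in knockout vehicle libraries (n = 8 each), and 24.1 ± 2.77 and 49.9 ± 1.30 RPKM after progesterone (n = 4 each), without overlap. The differences were 0.70 ± 0.06 (adjusted p = 9.32e-09) and 1.04 ± 0.08 (adjusted p = 1.05e-08). Mme, the gene of the peptide-degrading enzyme neprilysin, was lower, with log2 differences of -0.73 ± 0.20 after vehicle (adjusted p = 0.009406) and -0.85 ± 0.28 after progesterone (adjusted p = 0.03957). In the response to progesterone 1 was higher and 2 lower in floxed uteri, against 7.84% and 15.1% of all tested genes. In knockout uteri 1 was higher and 1 lower, against 4.00% and 4.66%. Pcsk5, a proprotein convertase gene, rose in floxed (1.03 ± 0.14, adjusted p = 1.16e-05) and in knockout uteri (0.71 ± 0.14, adjusted p = 0.002025). Pam fell in floxed uteri (-0.37 ± 0.08, adjusted p = 0.001796). Pcsk6 fell in both (-0.47 and -0.48, adjusted p = 0.02092 and 0.03622). Its 2 calls were lost without the 5 marker-bearing libraries (-0.53 and -0.62, adjusted p = 0.05576 and 0.08588). The median log2 difference of the list between genotypes was 0.08 after vehicle, beside -0.01 over all tested genes, and -0.04 after progesterone, beside 0.03.

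Of 18 genes for G proteins, adenylyl cyclases, phospholipases C and arrestins that carry the signal inward, 16 were tested. After vehicle 2 were higher and 5 lower in the knockout, and after progesterone 1 was higher and 5 were lower, against 13.1% and 11.5%, and 12.3% and 7.06%, of all tested genes. Without the 5 marker-bearing libraries 3 and 2 were lower. Over all 14284 tested genes, lower calls then went from 1638 to 1261 after vehicle and from 1009 to 678 after progesterone. Plcb4, a phospholipase of the pathway used by neurokinin receptors, was lower, with log2 differences of -0.42 ± 0.09 after vehicle (adjusted p = 0.001484) and -0.52 ± 0.13 after progesterone (adjusted p = 0.005858). Arrb2, an arrestin gene, was higher by 0.34 ± 0.06 (adjusted p = 0.0001494) and 0.56 ± 0.08 (adjusted p = 3.54e-05). The list's median difference was -0.10 in both treatments, beside -0.01 and 0.03 over all tested genes.

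The genes whose values over the 24 libraries ran most like each member were found by Pearson correlation of log2 values. The vehicle mean of each batch was removed first. Only genes that passed the filter were compared, and predicted names (such as Gm, Rik or LOC) were left out. The correlations are descriptions over libraries that share groups, batches and depth. For Tac2 they were Hsd11b2, a gene of glucocorticoid inactivation (r = 0.968), and Grid2ip (r = 0.959). For Calca they were Cth, a cysteine synthesis gene (r = 0.938), and Areg, the amphiregulin gene (r = 0.937). Ramp1 ran most like Tcf23 (r = 0.95) and Il13ra2 (r = 0.946), and Adm most like Cdkn1a, the gene of the cell cycle inhibitor p21 (r = 0.918), and Tmem144 (r = 0.91). Ramp2 ran most like the endothelial gene Egfl7 (r = 0.866) and Scarb1 (r = 0.853), Calcrl like Inpp4b (r = 0.886) and Ptbp3 (r = 0.88), and Ramp3 like Il17b (r = 0.885) and A2m (r = 0.852).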

How the data were processed

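Uterine RNA was sequenced from TruSeq libraries, per the labels' protocols, and cutadapt 2.7, TopHat, Partek and the build mm10 are named in the submitters' processing notes. The authors deposited gene-level RPKM after a batch correction, so the values are neither plain RPKM nor counts, and 6.66% lie below 0. That the correction added 1 constant per gene and batch is inferred from the values: vehicle means of both batches were equal (relative tolerance 0.0001) for 13688 of 13688 genes whose mean exceeded 1. A constant of this kind keeps differences within a batch and changes ratios, most near 0. No source used here names the counting tool, its strand setting or the tool of the correction. The planned test was kept although the unit differed from plain RPKM.

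Values below 0 were set to 0, 0.5 RPKM was added, and log2 values of genes reaching 1 RPKM in 4 or more libraries were fitted with limma 3.58.1 (R 4.3.3, trend and robust), with 4 groups and a batch term. Tests were two-sided, at an adjusted p of 0.05 over all 14284 tested genes. The fit was tested on simulated data. Members and lists were chosen with earlier results of these data known. The rule named all 10 members, partner genes and up to 4 called genes of each other list per contrast, those with the smallest adjusted p. Plcb4 was among these between genotypes after progesterone and not after vehicle. It also named the 2 most correlated tested genes per called member, leaving out predicted names. Krt5, Ovgp1, Egfl7, Cdh5, Vwf, Avil, Uchl1, Scn9a, Scn10a and the epithelial and stromal genes named were picked from marker lists after their values were seen. The value of 1 epithelial marker is not reported here. Coordinates are GENCODE M21 (GRCm38). Alternatives were other pseudocounts, filters, scalings, batches, weights, a replicate block and left-out libraries.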

Additional observations from a re-analysis of the deposited data

Results flagged for a closer look

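The response to progesterone differed between genotypes for 2 genes, by a test of the difference itself. The log2 response in knockout less that in floxed uteri was -2.62 for Tac2 and -1.63 for Calca (limma adjusted p = 1.87e-08 and 0.0003856, and 5.2e-09 and 0.0004029 in the fit of all genes without the filter).

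In 4 of 40 groups of values checked (10 genes in 4 groups), a library lay far from the rest of its group: its gap to the nearest value, divided by the group's range, was above Dixon's 95% critical value. By that criterion chance marks about 1 in 20 groups. Calca was 3.29 RPKM in floxed progesterone library 1, beside 1.79 to 1.94 RPKM in the other 3. Tac2 was 0.092 RPKM in knockout progesterone library 6, beside 0.404 to 0.465 RPKM in the other 3. Ramp2 was 66.1 RPKM in floxed vehicle library 4, beside 51.7 to 55.7 RPKM in the other 7. Tacr3 was 0.756 RPKM in knockout vehicle library 11a, beside 0.248 to 0.448 RPKM in the other 7.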

How the results depend on the processing

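Under the alternatives run, no called difference of the 7 tested genes changed sign. Counts of called members that moved by over 1.5 times fell as follows. Between genotypes after vehicle, 4 became 1 on the RPKM scale, 1 in the vehicle-only batch alone and 1 without the 5 libraries with oviduct or squamous markers. Over all genes the main fit called 1878 higher and 1638 lower there. These counts were 1755 and 1579 on the RPKM scale, 722 and 456 in the vehicle-only batch, and 1598 and 1261 without the 5 libraries. Between genotypes after progesterone, 3 became 1 with a filter of at least 5 RPKM, which removes Tac2 and Calca, and 1 with the replicate block. The count of 4 for the response in floxed uteri became 2 with that filter. The count of 3 in knockout uteri became 1 with the replicate block and 1 without the 5 libraries. The difference in response went from 2 to 0 with the filter of 5 RPKM and to 1 with the block. Where no reason is given the cause was not tested. Leaving out each library in turn gave 3 to 4 called members between genotypes in each treatment, 3 to 4 in floxed and 3 in knockout uteri, and 2 for the difference in response.

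The replicate block used the number in the sample title, and residuals of same-numbered libraries correlated from -0.256 to 0.639 over 11 pairs. Not every pair was over 0.1, so the numbers were not taken as pairing the libraries, and the labels do not say whether they mark an animal or litter. The pairs include some across genotypes and batches, so the check cannot exclude a shared animal or litter for some numbers. Libraries 1a and 1b correlated at -0.385 and 11a and 11b at 0.0128. Over all genes the block left 478 higher and 344 lower between genotypes after progesterone, 66 and 96 for the response in knockout uteri, and 9 and 17 for the difference in response. Fits of single batches gave 1220 and 1225 (mixed) or 722 and 456 (vehicle-only) after vehicle, where the counts were 1392 and 1043 with the block and 1169 and 1124 with the filter of 5 RPKM. That filter kept 10689 genes. It left 1123 and 741 after progesterone, 920 and 1483 in floxed uteri, and 137 and 99 for the difference in response. The fit with no batch term gave 818 and 1091 in knockout uteri. Without the 5 libraries with oviduct or squamous markers, 633 and 1431 genes were called in floxed uteri, 201 and 197 in knockout uteri and 120 and 93 for the difference in response. Under the block Calca differed by -1.02 after progesterone (adjusted p = 0.06902) and by -1.66 in response (adjusted p = 0.06281), and Adm by 0.91 after progesterone (adjusted p = 0.2335). The block also ended the calls of Adm in floxed uteri (0.81, adjusted p = 0.05291), of Tac2 (0.70, adjusted p = 0.108) and Calcrl (-0.43, adjusted p = 0.1968) in knockout uteri, and of Ramp2 after vehicle (0.20, adjusted p = 0.1581). With weights per library the counts over all genes rose to 3324 and 3176 after vehicle, 3813 and 3310 after progesterone, 2217 and 4059 in floxed uteri, 2184 and 3781 in knockout uteri and 2381 and 1741 for the difference in response. Beside that, 5 more values of members were called: Ramp1 after vehicle (-0.21), Ramp3 between genotypes after progesterone (0.76), Ramp2 in both responses (0.24 and 0.17) and the Adm difference in response (-0.63). With 0.1 RPKM added, the Calca response in floxed uteri was 3.37, its difference in response -2.59 and the Tac2 response in knockout uteri 1.44 (0.34 with 1 RPKM added). Depth limits the values near 0, those of Tacr2 and of Tac2 in vehicle libraries. The fit without the 5 libraries was extended to Calcb, Tacr2, Tacr3, Adm2 and the processing and signal genes after the data were seen.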
